A study of Mus musculus with 12 samples.

Results

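The Kruppel-like factors described here were 10 genes, Klf2, Klf3, Klf4, Klf5, Klf6, Klf7, Klf9, Klf10, Klf11 and Klf13, taken by symbol from a table of 24674 genes. RNA was sequenced from organoids, small 3-dimensional cultures, derived from basal epithelial cells of mouse prostate. All samples carried the Wildtype genotype on the C57BL/6 strain, and the methods describe adult male donors. The 12 samples formed 4 groups of 3, which received Vehicle, UK5099, Butyrate or UK5099 + Butyrate (the combination). The first of these drugs stops pyruvate from entering mitochondria by inhibiting its carrier, and the second inhibits the enzymes that take acetyl groups off histones. Doses and times for these samples were not found in the labels or in the methods for this experiment. The labels do not say whether replicates came from separate cultures or animals, so p-values measure only the spread between these samples, which may be technical.

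Kruppel-like factors are transcription factors that bind GC-rich elements and CACCC elements in promoters through C2H2 zinc fingers at their carboxy terminus. Family members share these fingers and differ in the rest of the protein. Klf2, Klf4, Klf5, Klf6 and Klf7 act largely as activators, Klf3 represses genes by recruiting CtBP proteins, and Klf9, Klf10, Klf11 and Klf13 recruit the Sin3a corepressor with its histone deacetylases. In stratified epithelia Klf4 is known for terminal differentiation and Klf5 for proliferation of basal cells, while Klf6 has been studied as a tumour suppressor of the prostate.

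Some Klf genes are controlled by other members of the family, so the promoters of the members with the largest changes are shown first. RefSeq promoters on GRCm38.p6 matched 8 of the 10 genes, and Klf5 and Klf10 had no entry. The 250 bases before the start site are given 5′ to 3′ on the strand of the gene for Klf2 (chr8:72318812-72319061, plus strand), Klf4 (chr4:55532476-55532725, minus strand) and Klf11 (chr12:24651121-24651370, plus strand). Capitals mark GC boxes (GGGCGG, or CCGCCC on the other strand), CACCC boxes (CACCC, or GGGTG on the other strand) and the MEF2 motif.
Klf2: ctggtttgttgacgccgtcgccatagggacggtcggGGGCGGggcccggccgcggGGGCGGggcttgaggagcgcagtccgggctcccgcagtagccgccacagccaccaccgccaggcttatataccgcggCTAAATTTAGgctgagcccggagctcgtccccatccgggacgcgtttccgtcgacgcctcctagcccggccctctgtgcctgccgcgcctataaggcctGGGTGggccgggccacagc
Klf4: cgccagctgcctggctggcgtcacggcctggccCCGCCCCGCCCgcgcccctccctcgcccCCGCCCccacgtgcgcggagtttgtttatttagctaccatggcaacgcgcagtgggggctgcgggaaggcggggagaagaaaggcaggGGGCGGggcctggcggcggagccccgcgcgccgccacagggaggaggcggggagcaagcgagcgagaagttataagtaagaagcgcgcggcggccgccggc
Klf11: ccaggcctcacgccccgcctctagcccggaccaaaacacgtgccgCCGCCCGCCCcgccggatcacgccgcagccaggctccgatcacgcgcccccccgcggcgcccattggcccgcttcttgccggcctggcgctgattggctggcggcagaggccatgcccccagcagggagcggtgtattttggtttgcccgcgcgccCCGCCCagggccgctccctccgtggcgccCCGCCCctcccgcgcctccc

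Klf4 and Klf11 each had 4 GC boxes, of which 1 pair overlapped, and no CACCC box in this window. Klf2 had 2 GC boxes, 1 CACCC box and the only MEF2 motif among the 8 members, between 118 and 109 bases before the start. A GC box was found in 7 of 8 member promoters and in 32.74% of 32851 mouse promoters of the same length. CACCC boxes were found in 5 of 8 members and 52.01% of all promoters, MEF2 motifs in 2.919% of all promoters, and the TATA box (TATAAA, or TTTATA on the other strand) in 0 of 8 members and 12.37% of all promoters. The shown windows were 71.2% (Klf2), 74% (Klf4) and 76.8% (Klf11) GC, against a median of 52.4% over all promoters. These letter matches are descriptions of sequence and were not tied to the RNA values.

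Levels are in TPM, fragments scaled to the length of each gene and then to a common total. In the deposited table that length was the whole genomic span with introns, so levels compared between genes are per span. Depth recovered from the steps of the TPM values was between 33252024 and 43499104 fragments per sample. In a comparison of recovered fragments between replicates, UK5099 replicate 1 and combination replicate 1 stood apart, with a chi-square per gene of 6.29 to 6.64 against their replicates and of 1.93 to 2.65 in every other pair within a group. Without UK5099 replicate 1 no tested value of a member crossed the adjusted p threshold used below, and Klf11 in butyrate against UK5099 went from 0.00 to -0.011. Without combination replicate 1 the interactions of Klf3 and Klf9 lost the test (limma adjusted p = 0.0116 and 0.0122), and no other value of a member crossed the threshold. Klf2 rested on between 97 and 334 fragments in a sample, and every other member on at least 1142. The basal markers Krt5, Krt14 and Trp63 summed to between 3507 and 10238 TPM and the luminal markers Krt8, Krt18 and Prom1 to between 473 and 2424. The 4 endothelial markers summed to at most 0.0426 TPM and the 3 stromal markers to at most 0.341. Of the immune markers Ptprc and Csf1r were near 0 and Cd68, a lysosomal protein, was between 23.8 and 97.1 TPM.

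Klf6, an injury-responsive activator, was the highest member in every group, with 544 ± 9.74 TPM in vehicle (SD, n = 3). Klf5 followed in vehicle with 158 ± 3.38 TPM, then Klf4 with 123 ± 1.58, Klf3 with 46.0 ± 1.25 and Klf10 with 41.0 ± 0.237. The lower members were Klf11 at 21.2 ± 0.371, Klf13 at 19.2 ± 0.629, Klf9 at 12.5 ± 0.222, Klf2 at 10.8 ± 1.12 and Klf7 at 4.72 ± 0.142 TPM. This order is of TPM per span and is not an order of RNA amounts. In vehicle, mean fragments were 3114 for Klf7 and 1745 for Klf11, and 7163 for Klf13 and 2703 for Klf10. No neighbours in the order of TPM had overlapping ranges in vehicle or in UK5099. In TPM, Klf4 stood above Klf5 in all 9 treated samples and below it in the 3 vehicle samples. This crossing depends on the spans. In fragments Klf5 was above Klf4 in every sample, with means of 18401 and 4674 in vehicle and 27794 and 16354 in the combination. Among the lower members, Klf2 overlapped with Klf11 and Klf13 in butyrate and in the combination.

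**Figure D1:**
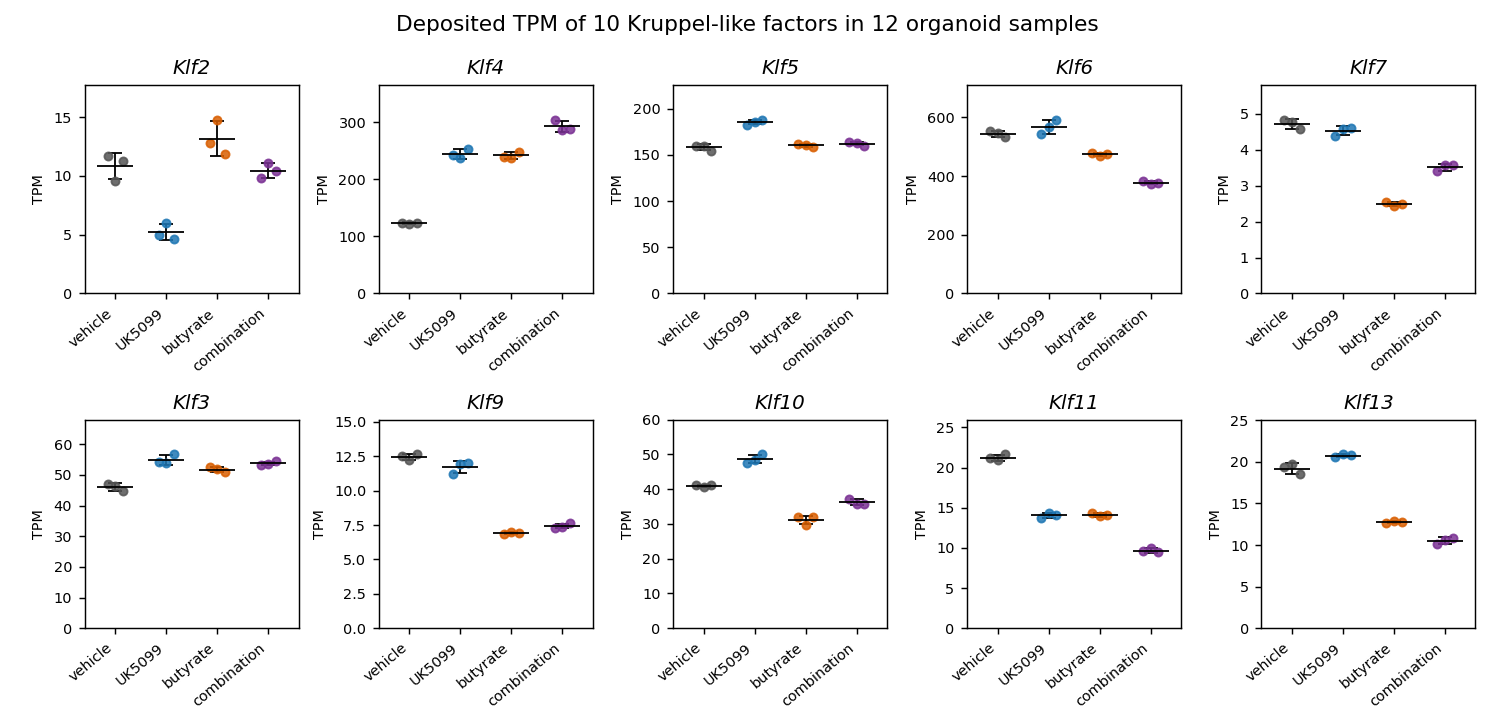
TPM of each factor (vertical axis, from 0, own scale per gene) in the 3 samples of each group; points are samples, and bars give the mean and SD. Klf4 was lowest in vehicle (121 to 124 TPM) and highest in the combination (287 to 304 TPM), and Klf11 ran the other way from 20.9 to 21.6 down to 9.48 to 9.98 TPM.

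Changes were tested with limma on log2(TPM + 1), and each coefficient is a difference on that scale, which understates the change of low genes. A member rose or fell where its Benjamini-Hochberg adjusted p over all 24674 genes was under 0.01, and it was called where its absolute coefficient was also over 1. The scale mattered for directions. As deposited, UK5099 moved the median of the 13345 genes with at least 1 TPM by -0.12, butyrate by -0.30 and both drugs together by -0.41, whereas after median of ratios scaling it was 0.00, -0.03 and -0.03. Where a member's direction turned or its test was lost after median of ratios scaling, quantile normalisation or scaling by total fragments, this is given beside it. The 3 comparisons with vehicle share the same vehicle samples, so values of a member in them are set side by side only. Fewer cells of a type and less RNA per cell cannot be told apart in these bulk samples.

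UK5099 alone was set against vehicle first, to ask how blocking pyruvate entry moved the family. Klf3, Klf4, Klf5 and Klf10 rose and Klf2 and Klf11 fell, while Klf6, Klf7, Klf9 and Klf13 did not pass the test. Of all genes, 33.0% passed in either direction, 8.24% as higher and 24.7% as lower. Among the 13345 genes with at least 1 TPM, which include all 10 members, 50.4% passed, so the share of members that passed was near the background. After median of ratios scaling 6 members were higher and 2 lower, beside 13.5% and 13.7% of all genes, and Klf6, at 0.06 as deposited (limma adjusted p = 0.147), passed as higher at 0.21. The value of Klf9 (-0.08 as deposited) turned to 0.058 there and did not pass on either scale. No member was called as deposited, against 1.84% of all genes.

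Butyrate alone moved more members down than up. Klf7, Klf9, Klf10, Klf11, Klf13 and Klf6 fell as deposited, Klf3 and Klf4 rose, and Klf2 and Klf5 did not pass. The background was 45.6% of all genes, 9.70% higher and 35.9% lower, and 69.2% of genes with at least 1 TPM. The falls of Klf7, Klf9, Klf11 and Klf13 passed under all 3 other scalings. The fall of Klf10 (-0.39 as deposited) did not pass under any of them (-0.08 to -0.03), and that of Klf6 (-0.20) turned to 0.12 after median of ratios scaling, where it passed as higher. After median of ratios scaling 5 members were higher (Klf2, Klf3, Klf4, Klf5 and Klf6) and 4 lower, beside 18.5% and 20.3% of all genes. None was called as deposited, against 3.54% of all genes.

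The combination raised Klf4 and Klf3 and lowered Klf6, Klf7, Klf9, Klf10, Klf11 and Klf13 as deposited. Of all genes 51.0% passed, 10.1% higher and 40.8% lower, and of genes with at least 1 TPM 75.4% passed. The fall of Klf10 (-0.17) turned to a rise of between 0.21 and 0.28 under the other scalings, and the fall of Klf7 (-0.34) was between -0.04 and 0.03 there and did not pass. That of Klf6 (-0.53) was -0.06 after median of ratios scaling and did not pass, but passed under the other 2. After median of ratios scaling 4 members were higher and 3 lower, beside 21.7% and 22.5% of all genes. As deposited Klf4 was called as higher and Klf11 as lower, where 6.42% of all genes were called, 1.79% higher and 4.63% lower. These were 442 genes higher and 1143 lower, and 722 higher and 410 lower after median of ratios scaling.

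**Figure D2:**
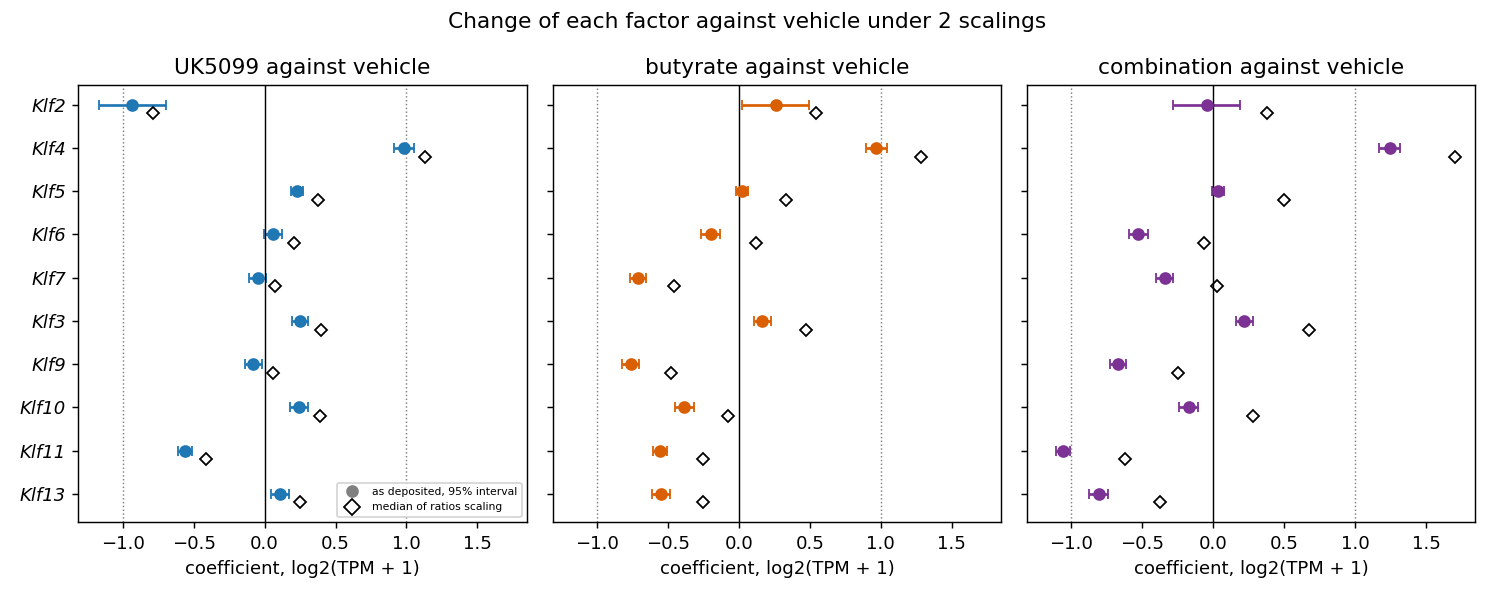
Coefficient on log2(TPM + 1) for each factor (rows) against vehicle; filled points with bars give the deposited scale and its 95% interval, open diamonds the value after median of ratios scaling, and dotted lines mark -1 and 1. In the combination the diamonds lie to the right of the points for all factors, and Klf4 (1.24 and 1.71) is farthest right on both scales.

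Klf4 is among the factors used to reprogram cells to pluripotency and a driver of epidermal barrier formation. Among the members described here it had the largest positive coefficient in all 3 comparisons with vehicle. Sp6, which is not one of these members, had larger coefficients with butyrate (1.45) and the combination (1.70) but not with UK5099 (0.53). Klf4 was at 124, 121 and 124 TPM in vehicle, 242, 237 and 254 in UK5099, 239, 238 and 249 in butyrate, and 304, 287 and 288 in the combination. Every treated sample was above every vehicle sample, the combination was above both drugs alone, and UK5099 and butyrate overlapped. Its coefficients were 0.98 for UK5099 (SE 0.03, limma adjusted p = 2.3e-08), 0.97 for butyrate (limma adjusted p = 8e-09) and 1.24 for the combination (limma adjusted p = 8.78e-10). Under the other scalings Klf4 was called in all 3, at 1.06 to 1.13, 1.22 to 1.28 and 1.52 to 1.71. The combination exceeded butyrate by 0.27 and UK5099 by 0.26, and both differences passed. Butyrate and UK5099 differed by -0.01 in Klf4 as deposited (95% interval -0.09 to 0.06), but by 0.12 to 0.22 in favour of butyrate under the other scalings, where the difference passed.

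Klf2, which keeps endothelium quiescent and responds to MEK5 and ERK5 signalling through MEF2, was the only member whose levels were lowest in UK5099 and highest in butyrate. It was at 11.7, 9.56 and 11.2 TPM in vehicle, 4.99, 5.97 and 4.65 in UK5099, 12.8, 14.8 and 11.9 in butyrate, and 9.82, 11.1 and 10.4 in the combination. UK5099 samples were below all others, butyrate samples were above all others, and vehicle and combination overlapped. The coefficient for UK5099 was -0.93 (SE 0.10, limma adjusted p = 6.65e-05) and passed at -0.80 to -0.78 under the other scalings. It went past -1 without vehicle replicate 2 (-1.01) and without UK5099 replicate 2 (-1.02). Butyrate against vehicle was 0.26 (limma adjusted p = 0.0649) and passed under the other scalings, at 0.52 to 0.60. Butyrate against UK5099 was 1.19 (limma adjusted p = 9.92e-06), the only member called in that comparison, where 1.86% of all genes were called. The combination against vehicle was -0.04 as deposited (limma adjusted p = 0.767) and 0.29 to 0.40 under the other scalings, where it did not pass either. Pecam1, Cdh5, Kdr and Tek, markers of endothelium, were each at or below 0.0339 TPM in every sample.

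Klf5 and Klf6, the most abundant activators in vehicle, behaved differently. Klf5 was between 154 and 160 TPM in vehicle, 183 and 188 in UK5099, 159 and 162 in butyrate, and 160 and 164 in the combination. Only its UK5099 samples stood apart. Its coefficient was 0.23 for UK5099 (limma adjusted p = 6.98e-06), 0.02 for butyrate (95% interval -0.02 to 0.06) and 0.04 for the combination (-0.01 to 0.08). Under the other scalings Klf5 also rose with butyrate (0.26 to 0.33) and with the combination (0.35 to 0.50). Klf6 was at 553, 546 and 534 TPM in vehicle, 542, 568 and 592 in UK5099, 480, 470 and 474 in butyrate, and 383, 372 and 377 in the combination. Vehicle and UK5099 overlapped, butyrate was below both and the combination was below butyrate. Klf6 fell between butyrate and the combination by 0.33 (limma adjusted p = 2.48e-05), and this difference passed at -0.30 to -0.18 under the other scalings.

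Klf7, an activator known for axon growth in neurons, was the lowest member in TPM, which were divided by its span of 92836 bases. It was at 4.83, 4.77 and 4.56 TPM in vehicle, 4.38, 4.58 and 4.62 in UK5099, 2.56, 2.45 and 2.48 in butyrate, and 3.39, 3.57 and 3.56 in the combination. Butyrate samples were lowest, the combination lay between, and vehicle and UK5099 overlapped. Klf7 fell with butyrate by 0.71 (SE 0.03, limma adjusted p = 1.32e-08), or by between 0.46 and 0.59 under the other scalings. It was 0.37 higher in the combination than in butyrate (limma adjusted p = 5.32e-06), which was 0.49 to 0.55 under the other scalings. Its UK5099 value of -0.05 (limma adjusted p = 0.161) turned to between 0.02 and 0.07 under the other scalings and passed in none.

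Klf3, the CtBP-recruiting repressor, ranged from 44.6 to 47.0 TPM in vehicle, 53.8 to 56.7 in UK5099, 50.8 to 52.5 in butyrate and 53.3 to 54.4 in the combination. Every treated sample was above every vehicle sample, and UK5099 and the combination overlapped. Klf3 rose by 0.25 under UK5099, 0.17 under butyrate and 0.22 under the combination, and by 0.33 to 0.39, 0.47 to 0.53 and 0.61 to 0.68 under the other scalings. Its span overlapped a long noncoding gene on the opposite strand and another transcript on its own strand, and that of Klf13 overlapped 2 long noncoding genes on the opposite strand. The labels and the methods each describe a strand-marking kit, though not the same one, and no source says whether counting used strand, so reads of these neighbours could not be told apart from those of Klf3 and Klf13.

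The Sin3a-recruiting repressors fell with butyrate as deposited and parted under UK5099. Klf11, first described as a gene induced early by TGF-beta, was at 21.1, 20.9 and 21.6 TPM in vehicle, 13.8, 14.3 and 14.1 in UK5099, 14.4, 13.9 and 14.0 in butyrate, and 9.56, 9.98 and 9.48 in the combination. The single drugs overlapped, all their samples were below vehicle, and the combination was lowest. Klf11 fell by 0.56 with UK5099 (SE 0.02, limma adjusted p = 9.58e-08), by 0.56 with butyrate (limma adjusted p = 3.18e-08) and by 1.06 with the combination (limma adjusted p = 3.58e-10). Under the other scalings all 3 falls of Klf11 passed but were smaller, at -0.50 to -0.42, -0.27 to -0.20 and -0.73 to -0.60, so that the combination was no longer called. Its values for butyrate and UK5099 differed by 0.00 as deposited (95% interval -0.05 to 0.06) and by 0.16 to 0.23 under the other scalings, where butyrate was higher.

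Klf10, the close relative of Klf11 and also TGF-beta inducible, moved the other way under UK5099. It was at 41.2, 40.7 and 41.1 TPM in vehicle, 47.6, 48.5 and 50.004 in UK5099, 31.9, 29.8 and 31.9 in butyrate, and 37.2, 35.8 and 35.9 in the combination. No groups overlapped on this scale. Klf10 rose by 0.24 with UK5099 (limma adjusted p = 0.000109), and by 0.32 to 0.39 under the other scalings. The ratio of Klf10 to Klf11, which a single factor per sample cannot change, was 1.93 ± 0.0274 in vehicle, 3.46 ± 0.0798 in UK5099, 2.21 ± 0.0685 in butyrate and 3.75 ± 0.155 in the combination (SD, n = 3), with no overlap between vehicle and any treated group.

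Klf9, responsive to glucocorticoid and thyroid hormones, was at 12.5, 12.2 and 12.6 TPM in vehicle, 11.2, 11.96 and 11.998 in UK5099, 6.82, 7.001 and 6.95 in butyrate, and 7.30, 7.40 and 7.64 in the combination. Both groups with butyrate were below both groups without it. Klf9 fell by 0.76 with butyrate (SE 0.03, limma adjusted p = 9.81e-09) and by 0.67 with the combination, and by 0.43 to 0.52 and 0.23 to 0.35 under the other scalings. Klf13, a regulator of chemokine expression in T cells, was at 19.3, 19.7 and 18.5 TPM in vehicle, 20.6, 20.9 and 20.8 in UK5099, 12.7, 12.9 and 12.7 in butyrate, and 10.1, 10.6 and 10.9 in the combination. Its combination samples were lowest and its UK5099 samples highest, with no overlap between groups. Klf13 fell by 0.55 with butyrate and by 0.81 with the combination, and by 0.19 to 0.27 and 0.35 to 0.48 under the other scalings. The UK5099 value of 0.11 for Klf13 (limma adjusted p = 0.0127) passed under the other scalings, at 0.19 to 0.25.

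The share of each member in the summed TPM of the 10 genes stays the same when a sample is multiplied by a single factor, though quantile normalisation can change it. As TPM are per span here, shares and ratios weigh members with short spans more. They compare groups and do not show which member had more RNA. The sum itself was 981 ± 14.4 TPM in vehicle, 1157 ± 37.1 in UK5099, 1009 ± 7.32 in butyrate and 964 ± 15.2 in the combination (SD, n = 3). Klf4 made up 12.5% ± 0.241 of it in vehicle, 21.1% ± 0.476 in UK5099, 24.0% ± 0.519 in butyrate and 30.4% ± 0.542 in the combination. Klf6 went from 55.5% ± 0.204 to 49.0% ± 0.673, 47.0% ± 0.228 and 39.1% ± 0.202 in the same order. The share of Klf5 was between 15.7% and 17.1% in all 12 samples. The ratio of Klf4 to Klf5 was 0.778 ± 0.0229 in vehicle, 1.31 ± 0.0378 in UK5099, 1.51 ± 0.0499 in butyrate and 1.80 ± 0.0513 in the combination, and no groups overlapped. That of Klf4 to Klf11 was 5.80 ± 0.0739, 17.4 ± 0.740, 17.1 ± 0.516 and 30.3 ± 1.55 in these groups.

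**Figure D3:**
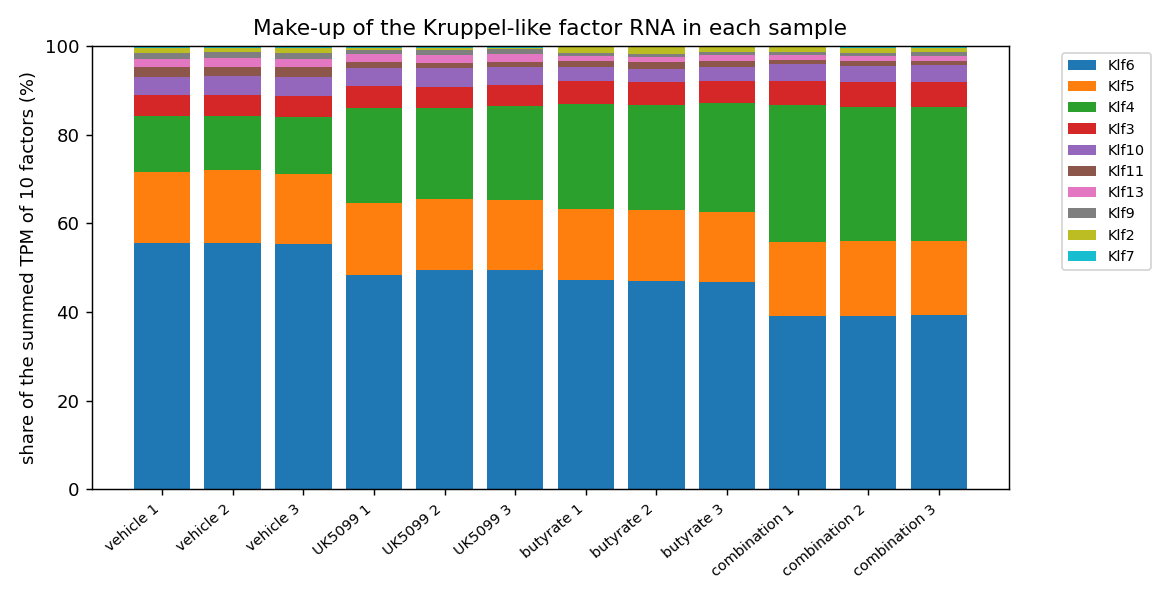
Share of each factor (percent, stacked, from 0 to 100) in the summed TPM of the 10 factors in each sample, where TPM are per genomic span. The Klf4 band widens from 12.5% in vehicle to 30.4% in the combination while the Klf6 band narrows from 55.5% to 39.1% and the Klf5 band stays between 15.7% and 17.1%.

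Whether the drugs together gave the sum of their single effects was tested by the interaction term, which is the combination coefficient minus the sum of the single ones. It passed for 7 of 10 members, positive for Klf7 and Klf9 and negative for Klf3, Klf4, Klf5, Klf6 and Klf13. Of all genes 13.4% passed, 7.01% positive and 6.38% negative, and of genes with at least 1 TPM 20.1% passed. No member was past 1 in absolute value, against 1.01% of all genes. For Klf4 the single coefficients summed to 1.95 and the combination reached 1.24, an interaction of -0.71 (limma adjusted p = 7.28e-06). For Klf13 they summed to -0.44 and the combination reached -0.81, and for Klf6 to -0.14 and -0.53, so both ended lower than the sum. For Klf7 they summed to -0.76 and the combination was at -0.34, an interaction of 0.42 (limma adjusted p = 4.49e-05).

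Klf11 and Klf10 had interactions of 0.06 (limma adjusted p = 0.275) and -0.03 (limma adjusted p = 0.733), and that of Klf2 was 0.63 (limma adjusted p = 0.0143), which did not pass, although it did without UK5099 replicate 2 (limma adjusted p = 0.00799) or butyrate replicate 2 (limma adjusted p = 0.00979). This term was little moved by scaling. The median over genes with at least 1 TPM was 0.00 as deposited, Klf4 stayed between -0.79 and -0.71, and the 7 members kept their sign under the other 3 scalings, with Klf9 alone losing the test under quantile normalisation and total fragments. Leaving out 1 sample, Klf9 lost the test in 11 of 12 cases, all but UK5099 replicate 1, and Klf3 in 4 of 12, namely butyrate replicates 1 and 2 and combination replicates 1 and 2 (limma adjusted p = 0.0116 to 0.0131). Against UK5099 alone, the combination was higher in Klf2 and Klf4 and lower in 7 members as deposited, where 43.0% of all genes passed, 7.62% higher and 35.3% lower. Of these, the fall of Klf5 (-0.19) turned to between 0.03 and 0.12 under the other scalings, and those of Klf7 and Klf10 did not pass under any. Klf3, at -0.03 as deposited, turned to between 0.27 and 0.28 and passed as higher. In all, 4 members were higher and 4 lower after median of ratios or total fragments scaling, and 3 and 4 after quantile normalisation. Against butyrate alone, Klf4, Klf7 and Klf10 were higher and Klf6, Klf11 and Klf13 lower in the combination, where 27.5% of all genes passed, 5.52% higher and 22.0% lower, and these 6 differences passed under the other 3 scalings as well, where 5 or 6 members were higher and 3 lower. No member was called in either comparison, where 1.97% and 0.908% of all genes were. Butyrate against UK5099 gave 1 member higher (Klf2) and 6 lower (Klf5, Klf6, Klf7, Klf9, Klf10 and Klf13) as deposited, where 37.5% of all genes passed, 9.97% higher and 27.5% lower. Of these falls, that of Klf5 did not pass under any other scaling and that of Klf6 passed only after quantile normalisation. With median of ratios or total fragments scaling 4 members were higher and 4 lower in this comparison, and 4 and 5 after quantile normalisation, with Klf3, Klf4 and Klf11 passing as higher.

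**Figure D4:**
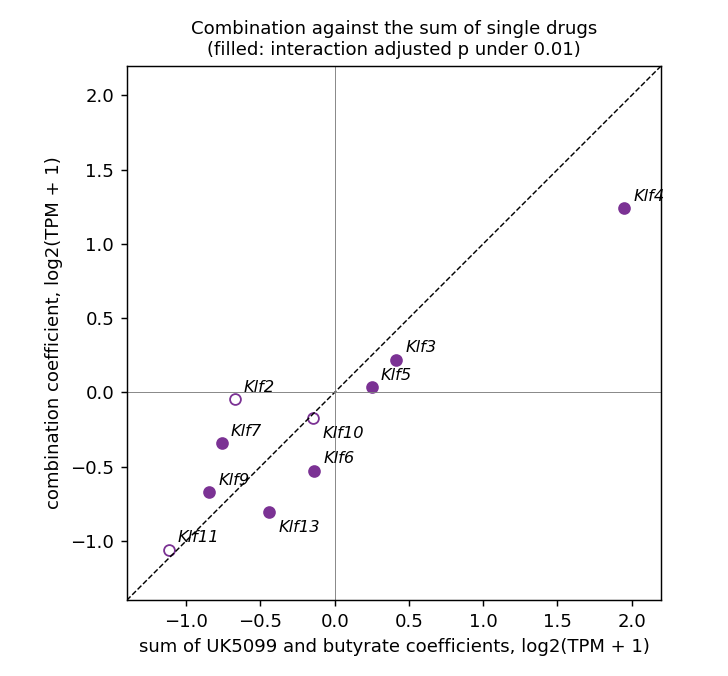
Combination coefficient (vertical) against the sum of the UK5099 and butyrate coefficients (horizontal), both on log2(TPM + 1), with 1 point per factor; the dashed line marks equality and filled points passed the interaction test. Klf4 (1.95, 1.24) and Klf13 (-0.44, -0.81) lie below the line, Klf7 (-0.76, -0.34) above it and Klf11 (-1.12, -1.06) close to it.

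Marker genes moved with the same treatments. The summed basal markers were between 3507 and 3547 TPM in vehicle, 9746 and 10238 in UK5099, 4486 and 4676 in butyrate and 8067 and 8320 in the combination. Krt5 and Trp63 rose with butyrate, while Krt14 fell by 0.27 (limma adjusted p = 6.29e-05), from 1676 to 1391 TPM. Krt14 was at 0.05 after median of ratios scaling and did not pass. Of the 3 basal markers, 1 passed as lower with butyrate after quantile normalisation and 0 after scaling by total fragments. The summed luminal markers were between 2341 and 2424 TPM in vehicle, 1098 and 1128 in UK5099, 883 and 901 in butyrate and 473 and 486 in the combination. In all 3 comparisons with vehicle Klf4 was higher and Klf11 lower where the luminal sum was lower, and all 3 luminal markers passed as lower in each. The luminal sum was also lower in butyrate than in UK5099, where 2 luminal markers passed as lower and 1 as higher. In that comparison Klf4 (-0.01) and Klf11 (0.00) did not pass as deposited. The epithelial markers Epcam and Cdh1 fell in each comparison with vehicle, from a summed 699 to 718 TPM in vehicle to between 178 and 183 in the combination. Their part in the values of the Klf genes was not tested.

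Of the other Klf and Sp genes 14 of 16 were in the table, and Sp6, which acts in tooth and skin epithelium, changed most. Sp6 was at 1.01 ± 0.0807 TPM in vehicle, 1.91 ± 0.300 in UK5099, 4.49 ± 0.184 in butyrate and 5.52 ± 0.0331 in the combination, and its coefficients of 0.53, 1.45 and 1.70 all passed, also after median of ratios scaling. Sp8, a factor of limb and brain development, differed by -0.05 with UK5099 and -0.06 with butyrate, neither of which passed, although after median of ratios scaling both turned to rises that passed (0.10 and 0.25), and fell by 0.86 with the combination (0.39 to 0.49 under the other scalings). Klf16 fell with butyrate (-0.72) and the combination (-0.76), as did Sp3 (-0.48 and -0.70), and these falls also passed after median of ratios scaling, at -0.41 and -0.32 for Klf16 and -0.18 and -0.27 for Sp3. In all, 2 of 14 were higher and 1 lower with UK5099, 2 higher and 5 lower with butyrate, and 3 higher and 8 lower with the combination. These became 4 and 0, 3 and 3, and 3 and 6 after median of ratios scaling. As deposited 8.24% of all genes were higher and 24.7% lower with UK5099, 9.70% and 35.9% with butyrate, and 10.1% and 40.8% with the combination. After median of ratios scaling the shares were 13.5% and 13.7%, 18.5% and 20.3%, and 21.7% and 22.5%.

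The cofactors were corepressors and coactivators that these factors bind. Of 11 cofactors, 9 were lower under UK5099, 11 under butyrate and 11 under the combination, and none was higher, where 24.7%, 35.9% and 40.8% of all genes were lower and 50.4%, 69.2% and 75.4% of genes with at least 1 TPM passed in either direction. The counts were 5, 7 and 10 after median of ratios scaling, again with none higher, where 13.7%, 20.3% and 22.5% of all genes were lower. Sin3a, the partner of Klf9, Klf10, Klf11 and Klf13, fell by 0.92 with the combination, and Ctbp1, a partner of Klf3, fell by 0.74 (0.53 and 0.30 after median of ratios scaling). The acetyltransferase gene Kat2b fell by 0.89 and the corepressor gene Ncor1 by 0.72 with the combination, or by 0.59 and 0.31 after median of ratios scaling. The median coefficient of the cofactors there was -0.69, beside -0.41 over the genes with at least 1 TPM. Of 4 ubiquitin ligase genes, 1 was higher and 2 lower with UK5099, and all 4 were lower with either treatment that held butyrate. After median of ratios scaling 1 was higher and 0 lower with UK5099, and 3 of 4 were lower with butyrate and the combination. The shares of all genes lower on both scales are those given above for the cofactors. With UK5099 8.24% of all genes were higher as deposited and 13.5% after median of ratios scaling. Fzr1, an activator of the anaphase-promoting complex, fell by 0.64 with butyrate and 0.79 with the combination as deposited. After median of ratios scaling it fell by 0.34 and 0.36.

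Upstream regulators covered the ERK5 pathway of Klf2, the TGF-beta pathway of Klf10 and Klf11, and Nr3c1, the gene of the glucocorticoid receptor. With butyrate 7 of 10 were lower and none higher, with the combination likewise, and with UK5099 Nr3c1 was higher (0.21, limma adjusted p = 0.000131) and 3 were lower. Of all genes 35.9% were lower with butyrate, 40.8% with the combination and 24.7% with UK5099, where 8.24% were higher. Of genes with at least 1 TPM, 69.2% passed in either direction with butyrate and 75.4% with the combination. Mef2c and Map2k5 were below that level, so neither share matches the list exactly. The 7 of 10 are therefore not read as a trait of these regulators. After median of ratios scaling 2 were higher and 5 lower with butyrate and with the combination, and 3 higher and 1 lower with UK5099. On that scale 18.5% of all genes were higher and 20.3% lower with butyrate. With the combination these shares were 21.7% and 22.5%, and with UK5099 13.5% and 13.7%. Smad3, a TGF-beta signal transducer, fell by 1.10 with butyrate and 1.19 with the combination, and its receptor gene Tgfbr1 fell by 0.77 and 1.06. Mapk7, which encodes ERK5, fell by 0.86 and 0.76, and Smad2 by 0.61 and 0.74. These falls also passed after median of ratios scaling but were smaller, at -0.81 and -0.77 for Smad3, -0.51 and -0.69 for Tgfbr1, -0.56 and -0.32 for Mapk7 and -0.34 and -0.35 for Smad2.

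Among 15 genes described as targets of the family, UK5099 raised 4 and lowered 6, butyrate 2 and 9, and the combination 3 and 8. Of all genes 8.24% were higher and 24.7% lower with UK5099, 9.70% and 35.9% with butyrate, and 10.1% and 40.8% with the combination. Of genes with at least 1 TPM, 50.4%, 69.2% and 75.4% passed in either direction. The target counts became 4 and 2, 4 and 5, and 6 and 5 after median of ratios scaling, beside 13.5% and 13.7%, 18.5% and 20.3%, and 21.7% and 22.5% of all genes. Thbd, the thrombomodulin gene and a target of Klf2 in endothelium, had the largest coefficients. It was at 0.237 ± 0.0300 TPM in vehicle, 23.2 ± 1.89 in UK5099, 3.44 ± 0.681 in butyrate and 24.4 ± 1.03 in the combination. Thbd rose by 4.29 under UK5099, where Klf2 fell and Klf4 rose. A link of Thbd to any member was not tested. Targets called lower numbered 2 with butyrate and 2 with the combination as deposited. After median of ratios scaling 1 was called lower in each, after quantile normalisation 0 and 1, and by total fragments 1 and 2. All genes called lower numbered 596 and 1143 as deposited, and 308 and 410 after median of ratios scaling. Ccnd1, a cyclin D gene, fell in all 3 comparisons as deposited, with coefficients of -0.53 (UK5099), -1.09 (butyrate) and -1.41 (combination). As deposited Tgfb1 fell by 1.34 with butyrate and 1.46 with the combination. S1pr1, below 1.5 TPM throughout, fell by 0.85 and 0.98 on this scale, which understates the change of low genes. It was at 1.21 ± 0.180 TPM in vehicle, 0.229 ± 0.121 in butyrate and 0.126 ± 0.109 in the combination.

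Several Klf genes respond to growth stimuli, so 8 immediate early genes were set beside them. With UK5099 3 were higher and 3 lower, with butyrate 4 and 1, and with the combination 4 and 3. These became 4 and 3, 7 and 0, and 6 and 1 when scaled by median of ratios. The shares of all genes higher and lower were 8.24% and 24.7%, 9.70% and 35.9%, and 10.1% and 40.8% as deposited. By median of ratios they were 13.5% and 13.7%, 18.5% and 20.3%, and 21.7% and 22.5%. Atf3, a stress-induced factor, fell by 1.37 with UK5099 and 1.18 with the combination, and Dusp1, a MAP kinase phosphatase gene, fell by 0.45 with UK5099. Fos fell by 0.49 with UK5099 and rose by 1.02 with butyrate and 0.57 with the combination. Egr1 rose by 0.45, 0.74 and 0.71. The directions of these named values were the same under the other scalings.

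Genes whose pattern over the 12 samples was most like that of the called members were found among 10104 candidates by the root mean square difference of centred log2 values. Ereg, which encodes the EGF receptor ligand epiregulin, was nearest to Klf4 at 0.0674, with 6.22, 13.8, 13.0 and 16.9 TPM in vehicle, UK5099, butyrate and the combination. Gna15, a G protein alpha subunit gene, followed at 0.0895. Mbtps1, the gene of a Golgi protease, was nearest to Klf11 at 0.0396, with 18.3, 12.5, 12.1 and 8.18 TPM, and Mcm7, a subunit gene of the replicative helicase, followed at 0.0484. Among the members the most alike were Klf3 and Klf5 at 0.119, Klf9 and Klf13 at 0.162, and Klf7 and Klf9 at 0.170.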

How the data were processed

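RNA was measured in 12 organoid samples of 4 groups taken from the labels. The authors deposited TPM per gene, in 1 table for 24674 genes. The methods name fastp, STAR, GRCm38 and RSEM, while the submitters' processing notes name STAR 2.7.9a, GRCm39 and Partek. The table names no build, and its nuclear gene positions were the same as those of GENCODE on GRCm38 for 2.08% of genes, so no positions from it are printed. TPM were divided by the genomic span of each gene, so long genes have low values.

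Values were fitted with limma 3.58.1 in R 4.3.3 on log2(TPM + 1), with terms for UK5099, butyrate and their interaction over all 12 samples, empirical Bayes moderation and Benjamini-Hochberg adjustment over all genes. Genes were called at an adjusted p under 0.01 and an absolute coefficient over 1, thresholds of the study's methods. The pseudocount of 1 was chosen here. Every comparison has 3 samples per group. The fit was also run on simulated data with independent counts and planted changes. That simulation had no outlying replicate and no general shift of the median, so it does not show how the fit behaves with these.

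Depth was recovered from the TPM steps. Of protein-coding values under 1000 fragments, between 75.4% and 76.9% were whole within 0.02 of a fragment. Replicates differed by more than sampling noise in all 12 pairs within groups, most in the pairs with UK5099 replicate 1 or combination replicate 1. Technical replicates can differ in this way too, so this does not show that the samples are independent. Each was fitted as a sample.

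The members, gene lists and thresholds were chosen with earlier results of these data known. Every member was named, and of each list up to 4 genes with the largest absolute coefficient against vehicle. Lists were other Klf and Sp genes, cofactors, ubiquitin ligases, upstream regulators, targets, immediate early genes and cell markers. Klf14, Klf17, Cd3e and Des had no row in the table used here. Alternatives were pseudocounts of 0.01 and 0.1, a filter at 1 TPM, 3 other scalings, another prior, a replicate block, a threshold of 0.05, fits of 6 samples and each sample left out. Levels were computed in Python 3.11.15 (pandas 2.3.3, numpy 2.4.6, scipy 1.17.1), and plots drawn in matplotlib 3.10.9.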

Additional observations from a re-analysis of the deposited data

Results flagged for a closer look

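The effect of UK5099 with butyrate present differed from its effect without butyrate in 7 members, by the interaction term of the limma fit. On log2(TPM + 1) the difference was -0.71 in Klf4, -0.39 in Klf6, -0.37 in Klf13, -0.21 in Klf5, -0.19 in Klf3, 0.17 in Klf9 and 0.42 in Klf7. Klf4 rose with UK5099 by 0.98 without butyrate and by 0.27 with it. The difference in Klf9 was past the threshold as deposited but not after quantile normalisation (limma adjusted p = 0.0129) or after scaling by total fragments (limma adjusted p = 0.0199), and it lost the test without any 1 of 11 of the 12 samples (limma adjusted p = 0.0103 to 0.0258). That in Klf3 lost it without any 1 of 4 samples.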

How the results depend on the processing

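Of 1170 values of single members under alternative settings, 1120 kept their direction and stayed called or not called, though in 66 of these the adjusted p alone crossed 0.01 (42 under other scalings), 32 turned in sign, 15 passed both thresholds newly and 3 no longer did. Other scalings account for 28 of the turns, in the order median of ratios, quantile and total fragments unless said. In UK5099 against vehicle Klf7 turned to 0.072, 0.057 and 0.020, and Klf9 to 0.058 and 0.054 under the first 2. In butyrate against vehicle Klf6 turned to 0.12 under median of ratios and 0.12 by fragments. In the combination against vehicle Klf2 turned to 0.38, 0.40 and 0.29, Klf10 to 0.28, 0.28 and 0.21, and Klf7 to 0.030 and 0.014 under the first 2. Against UK5099, the combination turned in Klf3 to 0.28, 0.27 and 0.28 and in Klf5 to 0.12, 0.030 and 0.11, and butyrate turned in Klf3 to 0.080, 0.16 and 0.15, in Klf4 to 0.15, 0.12 and 0.22 and in Klf5 to 0.024 by fragments. The other 4 turns were near 0 and came from leaving out a sample: Klf2 in the combination without vehicle replicate 1 (range over samples left out -0.12 to 0.0087), and, in butyrate against UK5099, Klf4 without UK5099 replicate 3 (-0.034 to 0.015) and Klf11 without UK5099 replicate 1 or butyrate replicate 1 (-0.011 to 0.017). Median of ratios scaling and quantile normalisation bring samples to a common level by construction. Scaling by total fragments does not set the median. For genes with at least 1 TPM it was -0.05, -0.03 and -0.09 there for UK5099, butyrate and the combination against vehicle. The cause of the turns was not tested.

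Members called numbered 0 in UK5099 against vehicle as deposited, 1 under each of both smaller pseudocounts (Klf2) and the 3 other scalings (Klf4), and between 0 and 2 with a sample left out, 1 without vehicle replicate 2 (Klf2) and 2 without UK5099 replicate 2 (Klf2 and Klf4). They numbered 1 in butyrate against vehicle (0 as deposited) and 1 in the combination (2 as deposited) under the 3 other scalings, and 1 in the combination against UK5099 (0 as deposited) under those and a pseudocount of 0.01. With pseudocounts of 0.01 and 0.1, all genes called became 1412 and 1034 for UK5099 (454 as deposited), 2573 and 1955 for butyrate (874), 4118 and 3292 for the combination (1585), 754 and 546 for the combination against butyrate (224), 1843 and 1297 for it against UK5099 (487), 1673 and 1179 for butyrate against UK5099 (459) and 599 and 519 for the interaction (250). By total fragments they became 691 for UK5099, 395 and 759 for the combination against butyrate and UK5099, 728 for butyrate against UK5099 and 406 for the interaction.

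Samples with the same replicate number did not deviate together (r between -0.107 and 0.0294 over 18 pairs), so no pairing by number was seen. With 3 samples per group this cannot exclude a pairing. With the replicate block, genes called were 449 (UK5099), 866 (butyrate) and 1580 (combination), 1 of 12 samples correlated best with its own number, and among members the interaction of Klf3 alone crossed the adjusted p threshold (limma adjusted p = 0.0145). Depth limited Klf2 most, at 97 fragments in its lowest sample. Every planned setting was run.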
